A study of Arabidopsis thaliana with 6 samples.

Results

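The genes described here are nuclear genes of Arabidopsis thaliana whose products do photosynthesis in chloroplasts, measured in root tips. A list of 50 gene IDs was used, and a gene belonged to it by its ID alone, whatever its level. The list holds 4 small subunits of Rubisco, 4 antenna proteins of photosystem I, 10 antenna proteins of photosystem II, 11 core subunits of photosystem I, 9 core subunits of photosystem II, 5 components of electron transport and ATP synthase, 5 Calvin cycle enzymes and the transcription factors GLK1 and GLK2. Of these, 48 were among the 18734 genes of the count table, and RBCS1B and GLK1 were not. All 48 passed the filter on low counts and were tested.

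RNA was taken from primary root tips of 0.5 cm from seedlings 5 days after planting. Each genotype had 3 libraries. Col is the Columbia-0 wild type, and ore15-2 is a line of the same background with a T-DNA inserted in ORE15. Seedlings grew on upright plates in continuous light, the labels give none of the 6 libraries a hormone treatment, and ORE15 encodes a transcription factor of the PLATZ family. The extract protocol speaks of 2 seedlings per genotype, which leaves unclear what a replicate is, and no label names separate cultures. P-values therefore measure a spread between libraries that may be technical. With a single insertion line, other differences of that line and the loss of ORE15 cannot be told apart.

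Rubisco fixes carbon dioxide, and its small subunits are made from nuclear genes while its large subunit is made from a chloroplast gene. The LHCA and LHCB proteins bind chlorophyll and pass light energy to photosystems I and II, which drive electrons through plastocyanin and the cytochrome b6f complex. Most plastids of a root tip are not green, and greening of roots is known to be promoted by HY5, GLK factors and cytokinin and held back by auxin.

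Total counts ranged from 6396903 to 20333352 per library. Counts assigned to ORE15 (AT1G31040, a pairing of name and ID that rests on background knowledge) were 13, 12 and 8 in the Col libraries and 0, 0 and 1 in the ore15-2 libraries. The ore15-2 libraries were not alike. The mitochondrial share of counts was 2.91% and 3.20% in ore15-2 replicates 1 and 2, against 0.328% in replicate 3 and 0.183% to 0.250% in Col, and replicates 1 and 2 also had the lowest total counts. The tissue label reads root meristem stem cells, and the stem cell niche genes were present at a summed 137 to 148 CPM (a count divided by its library size after scaling) in Col and 114 to 162 CPM in ore15-2. Genes of differentiated root hairs were present too, at a summed 272 to 334 CPM in Col and 529 to 902 CPM in ore15-2, and all 6 rose in edgeR with all libraries, of which none stayed past the threshold without Col replicate 1. Of 19 leaf and shoot genes, 5 were in the table and none of these passed the threshold, and their summed level was 37.6 to 45.0 CPM in Col and 41.7 to 50.5 CPM in ore15-2.

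Root tips of ore15-2 had lower transcript levels of many of these photosynthesis genes, 5 of them photosystem I core subunits, and higher levels of 2 low-expressed Rubisco small subunit copies. With edgeR's quasi-likelihood test and a Benjamini-Hochberg adjusted p threshold of 0.05 over 18726 tested genes, 14 of 48 members fell, 2 rose and 32 did not pass. Over all genes 3.43% were called lower and 6.47% higher. The median log2 fold change was -0.34 over the 48 members and -0.0005 over all genes, and 41 of 48 members had a negative value. All 3 ore15-2 libraries lay below all 3 Col libraries in 24 members, against 16.3% of all genes, and above them in 2 members, against 18.2% of all genes. In whole root tips, fewer cells of a type and less RNA per cell cannot be told apart.

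**Figure D1:**
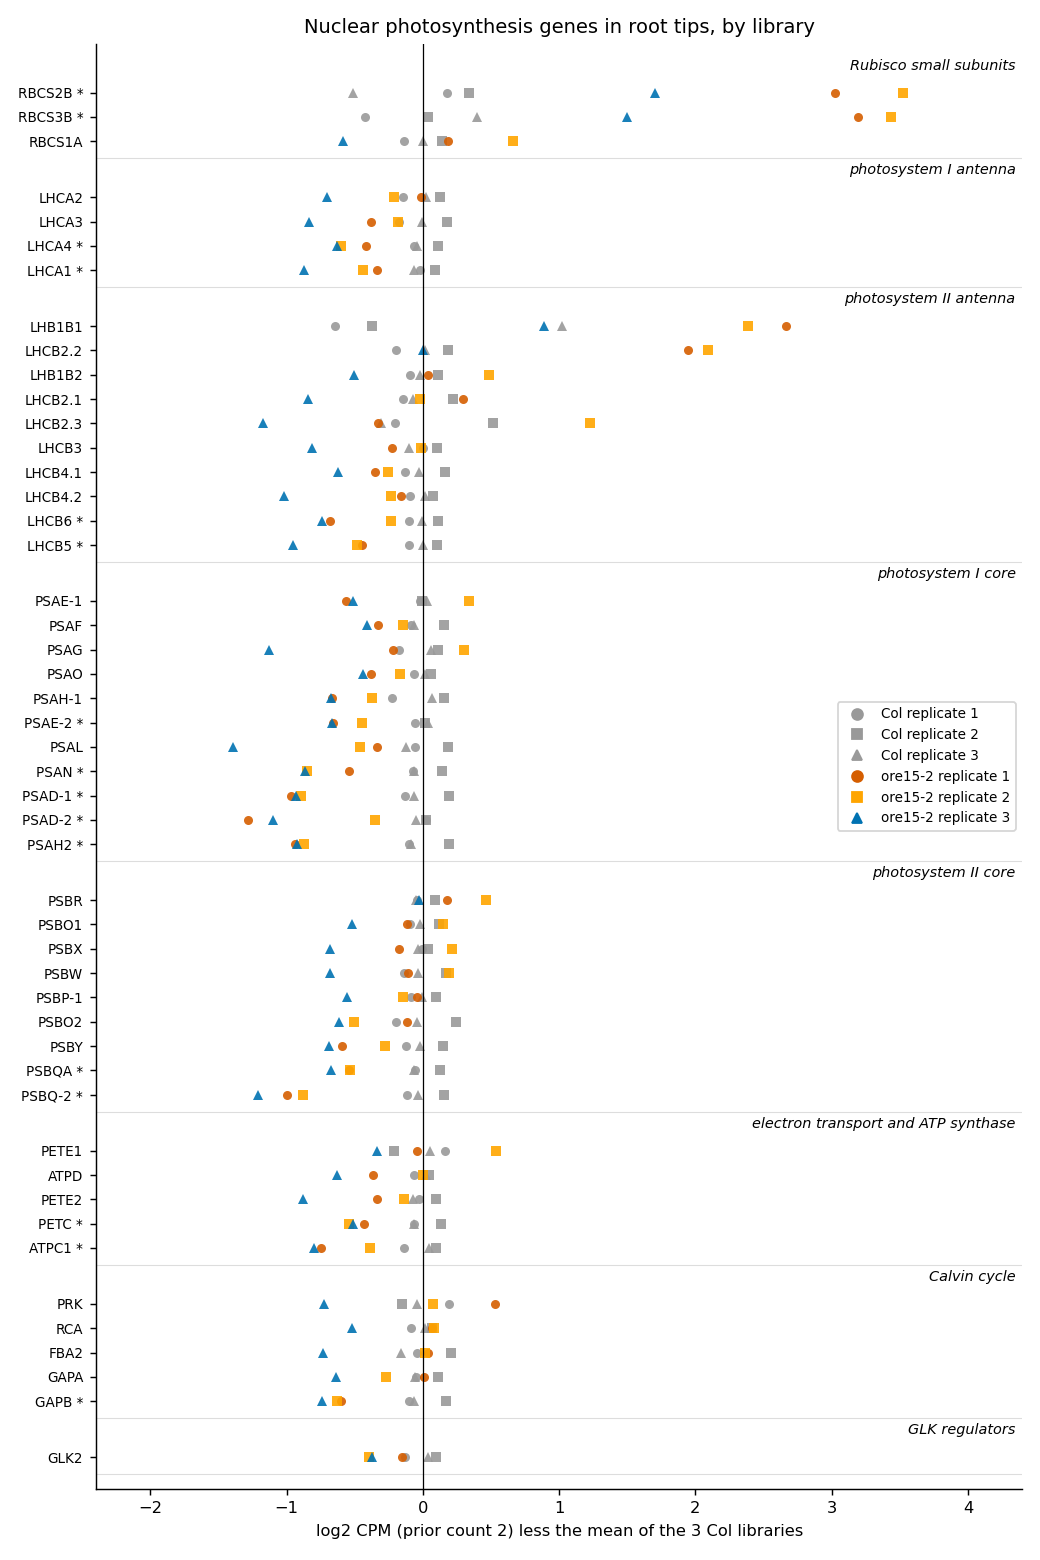
Change of each of 48 members in each library, as log2 CPM (prior count 2) less the mean of the Col libraries, grouped by role and sorted by fold change. An asterisk marks an edgeR adjusted p under 0.05. Grey symbols are Col and coloured symbols ore15-2, and ore15-2 replicate 3 (blue) is the leftmost ore15-2 symbol in 42 of 48 genes.

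The fall was deepest in ore15-2 replicate 3. The median change over the 48 members was -0.10, 0.11 and -0.03 in Col replicates 1, 2 and 3, and -0.33, -0.17 and -0.68 in ore15-2 replicates 1, 2 and 3, on the log2 scale. Replicate 3 was the lowest ore15-2 library in 42 of 48 members, whereas it was the lowest in 37.6% of all genes. Replicate 1 lay below every Col library in 31 members (38.8% of all genes did so), replicate 2 in 28 (44.9%) and replicate 3 in 43 (35.6%). The Col libraries were also shifted as a set, with 44 members under the Col mean in replicate 1 and 4 in replicate 2. The share of unscaled counts that went to the 48 members was 0.225%, 0.254% and 0.231% in Col and 0.181%, 0.179% and 0.153% in ore15-2. After scaling, their summed level was 2034, 2348 and 2128 CPM in Col and 1955, 2270 and 1441 CPM in ore15-2. On that scale ore15-2 replicate 2 lay within the Col range and replicate 1 a little below it.

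The number of falls depended on which libraries entered the fit. Without Col replicates 1, 2 and 3 it was 6 (1.59% of all genes fell), 2 (1.15%) and 5 (1.43%). Without ore15-2 replicates 1, 2 and 3 it was 6 (1.36%), 24 (3.95%) and 19 (16.6%). When ore15-2 was represented by replicate 3 alone, 38 members fell and 5.63% of all genes did. Such a fit treats the lone ore15-2 library as varying like Col. PSAD-1 and PSBQ-2 were called lower in every one of these fits. The members' median log2 fold change was -0.51 without ore15-2 replicate 2 and -0.25 without ore15-2 replicate 3.

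**Figure D2:**
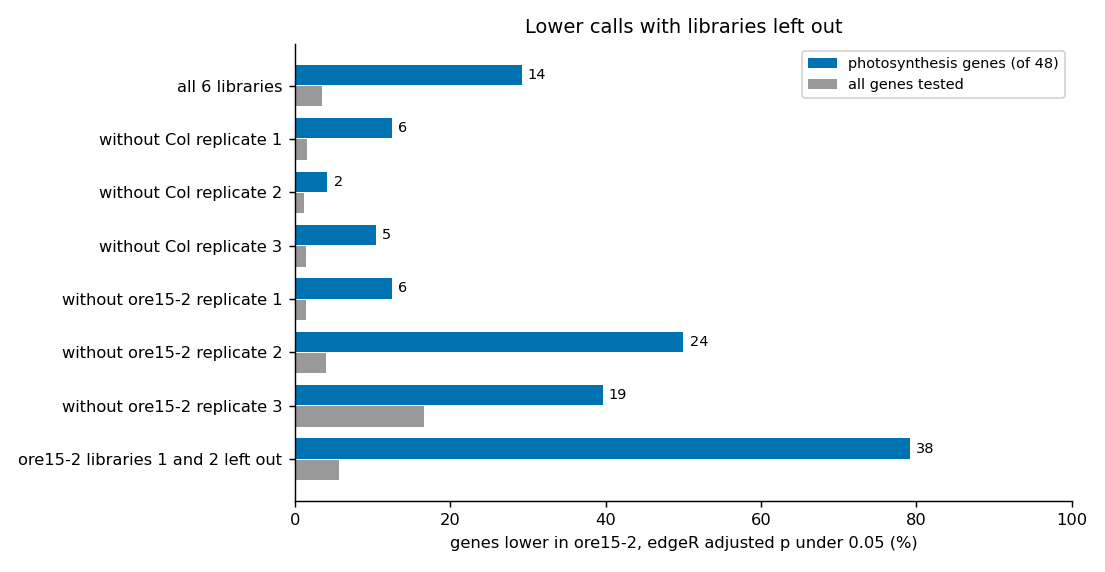
Percentage of genes called lower in ore15-2 (edgeR adjusted p under 0.05) with all 6 libraries and with libraries left out. Blue bars are the 48 photosynthesis genes, with their number printed, and grey bars all genes tested. The number ranges from 2 without Col replicate 2 to 38 with ore15-2 replicates 1 and 2 left out.

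The 2 members that rose are Rubisco small subunits, a family of near-identical copies. RBCS1B (chr5:15383167-15385320), RBCS2B (chr5:15380907-15382071) and RBCS3B (chr5:15376988-15378642) lie in a row on the minus strand of chromosome 5, with 1095 bp between RBCS1B and RBCS2B and 2264 bp between RBCS2B and RBCS3B, while RBCS1A (chr1:25048158-25049667, minus strand) stands alone on chromosome 1 (RefSeq TAIR10.1). The coding sequences of RBCS2B and RBCS3B are 96.9% identical, those of RBCS1B and RBCS2B 97.3%, and those of RBCS1A and RBCS3B 90.6%. A stretch of 90 coding bases from each copy, starting at coding base 15, shows what a read has to tell the copies apart, with capitals at the 23 positions where the 4 copies are not all the same:
RBCS1A: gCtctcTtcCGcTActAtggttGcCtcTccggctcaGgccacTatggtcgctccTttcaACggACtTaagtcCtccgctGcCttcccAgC
RBCS1B: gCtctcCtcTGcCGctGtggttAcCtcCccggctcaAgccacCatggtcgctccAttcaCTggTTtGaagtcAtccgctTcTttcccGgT
RBCS2B: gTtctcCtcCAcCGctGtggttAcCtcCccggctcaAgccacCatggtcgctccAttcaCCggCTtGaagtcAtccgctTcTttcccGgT
RBCS3B: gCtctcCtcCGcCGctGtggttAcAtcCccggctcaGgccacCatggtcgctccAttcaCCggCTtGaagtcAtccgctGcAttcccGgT
The 50-base windows of each copy's longest spliced transcript were looked up in annotated transcripts of other, non-overlapping genes, on both strands. A match was found for 21.4% of them in RBCS2B, 18.3% in RBCS3B, 14.0% in RBCS1B and 1.48% in RBCS1A. The sources used here do not say how the authors' counting treated reads that fit more than 1 copy, and the split between RBCS2B and RBCS3B is uncertain.

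RBCS1A (AT1G67090) carried nearly all of the family's counts in Col. Its level was 84.2, 102 and 92.9 CPM in Col replicates 1 to 3 and 105, 147 and 61.7 CPM in ore15-2 replicates 1 to 3. The ore15-2 values lay on both sides of Col, with replicate 2 highest and replicate 3 lowest of all 6 libraries, and the log2 fold change was 0.15 (SE 0.26, edgeR adjusted p = 0.728). Without ore15-2 replicate 3 it was 0.40 (edgeR adjusted p = 0.0350), and with ore15-2 replicates 1 and 2 left out it was -0.59. The fit without ore15-2 replicate 3 called many genes, with 3510 of all 18730 higher.

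RBCS3B (AT5G38410) stood at 1.35, 1.91 and 2.48 CPM in Col and 18.1, 21.5 and 5.49 CPM in ore15-2. Every ore15-2 library was above every Col library, and replicate 3 was the lowest of the 3. The gene rose by 2.86 on the log2 scale (SE 0.48, edgeR adjusted p = 0.00643), or 7.27-fold. The rise was 1.52 with ore15-2 replicates 1 and 2 left out.

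RBCS2B (AT5G38420) stood at 0.311, 0.363 and 0.143 CPM in Col, from 6, 8 and 3 counts, and at 3.07, 4.37 and 1.14 CPM in ore15-2, from 19, 22 and 20 counts. The groups did not overlap, and again replicate 3 was the lowest ore15-2 library. The gene rose by 3.09 on the log2 scale (SE 0.58, edgeR adjusted p = 0.0112). The edgeR adjusted p was 0.0519 without Col replicate 1 and 0.0624 without ore15-2 replicate 1, and the change was 3.68 without ore15-2 replicate 3 and 2.05 with ore15-2 replicates 1 and 2 left out.

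Within the family the counted shares of the copies lay apart between the genotypes, a difference that was not tested. RBCS1B was not in the count table and is missing from these shares. RBCS3B took 1.57%, 1.82% and 2.60% of the counts of the 3 measured copies in Col and 14.3%, 12.5% and 8.04% in ore15-2. RBCS1A took 97.3% to 98.1% in Col and 83.3%, 85.0% and 90.3% in ore15-2. RBCS1A remained the main copy in every library. Per length, the mean deposited RPKM (reads scaled by gene length and library total) was 182 for RBCS1A, 14.3 for RBCS3B and 2.63 for RBCS2B over all 6 libraries.

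The chloroplast gene for the large subunit, rbcL (ATCG00490), was at 2.18, 2.09 and 2.68 CPM in Col and at 69.0, 78.3 and 0.801 CPM in ore15-2. It was high in ore15-2 replicates 1 and 2 and below Col in replicate 3 (log2 fold change 4.34, SE 1.11, edgeR adjusted p = 0.0392), and it passed the threshold in 1 of the 6 fits that left out a library, the fit without ore15-2 replicate 3. Over 12 chloroplast-encoded genes the median log2 change was 3.97 in ore15-2 replicate 1, 4.16 in replicate 2 and -0.51 in replicate 3. Of the 12, 6 passed the threshold, all higher, against 6.47% of all genes. Poly(A) RNA was sequenced, and the mitochondrial share was also high in ore15-2 replicates 1 and 2 (2.91% and 3.20%). Higher expression of chloroplast genes and more organelle RNA carried into these libraries cannot be told apart. RBCS3B and RBCS2B were highest in ore15-2 replicates 1 and 2 too, and what those libraries' organelle share contributes was not tested. With organelle genes left out of the table RBCS3B changed by 2.85. That fit only drops the organelle rows and cannot show what else sets those libraries apart.

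**Figure D3:**
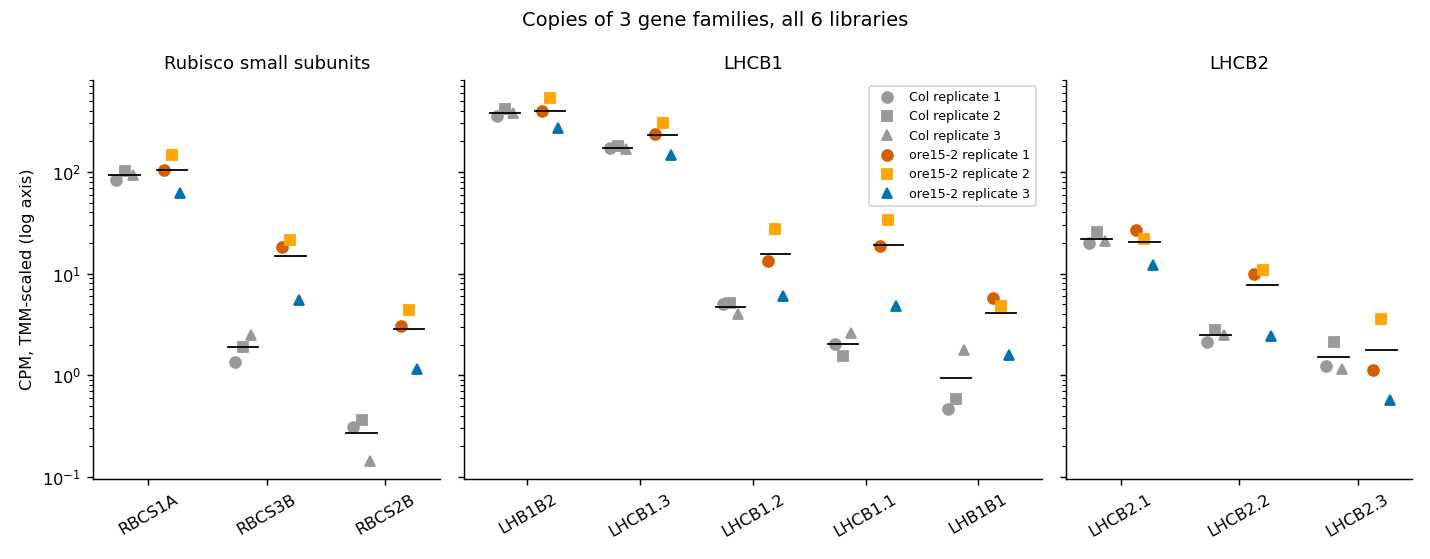
Level of each measured copy of the Rubisco small subunit, LHCB1 and LHCB2 families in all 6 libraries, in TMM-scaled CPM on a log axis, with black lines at the group means. RBCS3B, RBCS2B, LHCB1.1 and LHCB1.2 lie higher in all ore15-2 libraries than in any Col library, and the most abundant copies, RBCS1A, LHB1B2 and LHCB2.1, overlap between the genotypes.

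The antenna of photosystem II held the member with the highest level per length, LHB1B2, a copy of the main trimeric light-harvesting protein LHCB1, at a mean RPKM of 494. None of its 10 members rose and 2 fell, LHCB5 and LHCB6, and the group's median log2 fold change was -0.26. LHB1B2 (AT2G34420) was at 358, 415 and 379 CPM in Col and 394, 535 and 270.2 CPM in ore15-2. Replicates 1 and 2 of ore15-2 were within or above the Col range and replicate 3 was below it (log2 fold change 0.06, SE 0.23, edgeR adjusted p = 0.896). LHB1B2 overlaps a non-coding RNA gene on the other strand over all of its 1045 bp, and the sources used here do not give the strand setting of the counting.

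LHCB5 (AT4G10340), a minor antenna protein also called CP26, was at 64.0, 73.8 and 68.8 CPM in Col and 50.4, 49.1 and 35.5 CPM in ore15-2. LHCB6 (AT1G15820), the minor antenna protein CP24, was at 66.7, 77.1 and 71.0 CPM in Col and 44.6, 60.6 and 42.8 CPM in ore15-2. In both genes every ore15-2 library was below every Col library. LHCB5 fell by 0.63 (SE 0.14, edgeR adjusted p = 0.0236) and LHCB6 fell by 0.55 (SE 0.14, edgeR adjusted p = 0.0382) on the log2 scale. LHCB5 missed the threshold without Col replicates 1, 2 or 3 (edgeR adjusted p = 0.0607, 0.105 and 0.0722), and LHCB6 missed it without any Col replicate or without ore15-2 replicate 1 (edgeR adjusted p from 0.0860 to 0.158). LHCB6 overlaps neighbouring genes.

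Among the remaining antenna genes of photosystem II, LHCB3, LHCB4.1 and LHCB4.2 had log2 fold changes of -0.34, -0.42 and -0.47, and the groups did not overlap for LHCB4.1 and LHCB4.2. LHCB2.1 and LHCB2.3 were at -0.17 and -0.18. LHB1B1 and LHCB2.2 are low-expressed copies of the same families as LHB1B2 and LHCB2.1. They had positive values of 1.89 (SE 0.59, edgeR adjusted p = 0.0804) and 1.47 (SE 0.48, edgeR adjusted p = 0.0907). LHB1B1 (AT2G34430) was at 0.467, 0.590 and 1.77 CPM in Col and 5.82, 4.77 and 1.60 CPM in ore15-2, and LHCB2.2 (AT2G05070) was at 2.13, 2.82 and 2.48 CPM in Col and 9.85, 10.9 and 2.46 CPM in ore15-2. In both genes ore15-2 replicates 1 and 2 were above every Col library and replicate 3 was within the Col range.

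LHCB1.1, LHCB1.2 and LHCB1.3 (CAB2, CAB3 and CAB1), which are not members, belong to the same LHCB1 family. LHCB1.1 rose from 2.02, 1.54 and 2.58 CPM in Col to 18.6, 33.8 and 4.80 CPM in ore15-2 (log2 fold change 3.11, SE 0.61, edgeR adjusted p = 0.0137). LHCB1.1 missed the threshold without Col replicate 1, Col replicate 2 or ore15-2 replicate 1 (edgeR adjusted p from 0.0637 to 0.0736). LHCB1.2 was at 5.08, 5.09 and 4.01 CPM in Col and 13.3, 27.6 and 6.06 CPM in ore15-2, above Col in each library (log2 fold change 1.62, edgeR adjusted p = 0.0548). LHCB1.3 was at 171, 179 and 167 CPM in Col and 238, 306 and 146 CPM in ore15-2, with replicates 1 and 2 above Col and replicate 3 below it (log2 fold change 0.41, edgeR adjusted p = 0.276). These 3 genes lie on chromosome 1 in a stretch where other genes were higher too, as the median log2 fold change of the 10 tested genes on either side was 0.97, 0.98 and 1.01. No member has such a neighbourhood, since the same median lay between -0.14 and 0.17 around the 48 members, PSAF near ORE15 included (-0.08).

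Copies that share sequence are set apart here. Of 7 members in which at least 50 windows of 50 bases occur in a transcript of another gene (RBCS2B, RBCS3B, LHCA2, LHB1B1, LHB1B2, LHCB2.1 and LHCB2.2), 2 rose and none fell, and their median log2 fold change was 1.47. Their values were spread from -0.32 to 3.09, and 2 of the 7 were negative. Of the other 41 members none rose and 14 fell, and 39 had negative values with a median of -0.43. This split was made after the values were seen, so it is given as a description with no test.

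The antenna of photosystem I showed lower values in all 4 of its genes, with a median log2 fold change of -0.51, and 2 of them fell. LHCA4 (AT3G47470), which carries some of the far-red chlorophylls of this antenna, was at 133, 149 and 134 CPM in Col and 104, 91.3 and 89.6 CPM in ore15-2. LHCA1 (AT3G54890), its partner in a dimer, was at 35.9, 38.7 and 34.9 CPM in Col and 28.9, 26.8 and 19.8 CPM in ore15-2. The genotypes did not overlap in either gene. LHCA4 fell by 0.55 (SE 0.11, edgeR adjusted p = 0.0137) and LHCA1 fell by 0.56 (SE 0.14, edgeR adjusted p = 0.0402). LHCA4 missed the threshold without Col replicate 2 (edgeR adjusted p = 0.0820), and LHCA1 without any Col replicate or without ore15-2 replicate 1 (edgeR adjusted p from 0.0573 to 0.166). LHCA2 and LHCA3 had log2 fold changes of -0.32 and -0.46. LHCA4 overlaps a neighbouring gene by 53 bp.

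The core of photosystem I held 5 of the 14 falls. All 11 of its genes had negative values, with a median log2 fold change of -0.61, and in 9 of them the 3 ore15-2 libraries were below the 3 Col libraries. PSAD and PSAE form the stromal face where ferredoxin docks, PSAF and PSAN act at the lumenal face where plastocyanin docks, and PSAH, PSAL and PSAO are known from docking of the photosystem II antenna during state transitions.

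PSAD-1 (AT4G02770, chr4:1229031-1230164, minus strand) gave the smallest p of all members. Its level was 41.6, 52.2 and 43.6 CPM in Col and 23.3, 24.5 and 23.9 CPM in ore15-2. The 3 ore15-2 libraries were nearly level with each other and well below Col, and the gene fell by 0.94 on the log2 scale (SE 0.11, edgeR adjusted p = 0.00126). Here ore15-2 replicate 3 lay between replicates 1 and 2. It stayed past the threshold in all 17 alternative analyses, with log2 fold changes from -1.16 to -0.87. Its second copy PSAD-2 (AT1G03130) was at 7.0, 6.99 and 6.64 CPM in Col and 2.75, 5.37 and 3.15 CPM in ore15-2, with no overlap (log2 fold change -0.95, SE 0.23, edgeR adjusted p = 0.0305). PSAD-1 took 85.6% to 88.2% of the counts of the pair in Col and 82.0% to 89.4% in ore15-2, so the balance of the copies overlapped between genotypes, and the 2 coding sequences are 87.8% identical.

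PSAN (AT5G64040) was at 17.5, 20.3 and 17.6 CPM in Col and 12.6, 10.1 and 10.1 CPM in ore15-2. PSAE-2 (AT2G20260) was at 16.5, 17.4 and 17.6 CPM in Col and 10.8, 12.5 and 10.8 CPM in ore15-2. PSAH2 (AT1G52230), the least abundant of the 5, was at 2.13, 2.63 and 2.15 CPM in Col and 1.13, 1.19 and 1.14 CPM in ore15-2. These PSAH2 values come from 41, 58 and 45 counts in Col and only 7, 6 and 20 counts in ore15-2. In all 3 genes the groups were apart. PSAN fell by 0.76 (SE 0.15, edgeR adjusted p = 0.0118), PSAE-2 fell by 0.61 (SE 0.13, edgeR adjusted p = 0.0199) and PSAH2 fell by 1.00 (SE 0.24, edgeR adjusted p = 0.0318). PSAN missed the threshold without Col replicate 2 (edgeR adjusted p = 0.0815). PSAD-2, PSAE-2 and PSAH2 missed it without any Col replicate or without ore15-2 replicate 1 (edgeR adjusted p from 0.0668 to 0.140). With the replicate number as a block the edgeR adjusted p was 0.0504 for PSAE-2 and 0.0804 for PSAH2. PSAH2 also missed the threshold with DESeq2 (adjusted p = 0.0626) and with ore15-2 replicates 1 and 2 left out (edgeR adjusted p = 0.0537). PSAH2, PSAE-2 and PSAN overlap a neighbouring gene by 174, 63 and 39 bp.

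PSAF (AT1G31330), the core member with the highest mean RPKM (92.7), was at 62.3, 73.6 and 63.1 CPM in Col and 52.7, 59.6 and 49.8 CPM in ore15-2. The groups were apart, but the change of -0.30 (SE 0.11, edgeR adjusted p = 0.122) did not pass. It was -0.38 without ore15-2 replicate 2, with an edgeR adjusted p of 0.0386. The other 5 core genes, PSAE-1, PSAG, PSAH-1, PSAL and PSAO, had log2 fold changes of -0.24, -0.33, -0.60, -0.73 and -0.34. PSAK, a core subunit gene that is not a member, had a positive value of 0.34 (edgeR adjusted p = 0.128), and the tested genes around it on chromosome 1 had a median of 0.88.

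In the core of photosystem II the 2 members that fell were the copies of PSBQ, an extrinsic protein of the oxygen-evolving complex. The other extrinsic proteins, PSBO1, PSBO2 and PSBP-1, had values of -0.15, -0.43 and -0.24 that did not pass, and a difference between these subunits was not tested. PSBQ-2 (AT4G05180, chr4:2671523-2673243, minus strand) was at 17.3, 20.9 and 18.4 CPM in Col and 9.37, 10.1 and 8.06 CPM in ore15-2. PSBQA (AT4G21280) was at 16.1, 18.3 and 16.0 CPM in Col and 11.5, 11.5 and 10.5 CPM in ore15-2. Both genes were lower in each ore15-2 library than in any Col library. PSBQ-2 fell by 1.06 (SE 0.15, edgeR adjusted p = 0.00259), the deepest fall of the 48 members, and stayed past the threshold in all 17 alternatives. PSBQA fell by 0.60 (SE 0.13, edgeR adjusted p = 0.0233) and missed the threshold without any Col replicate or without ore15-2 replicate 1 (edgeR adjusted p from 0.0665 to 0.136) and with the replicate block (edgeR adjusted p = 0.0560). PSBQ-2 took 51.9% to 53.5% of the pair's counts in Col and 43.5% to 46.8% in ore15-2, a difference that was not tested.

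PSBR (AT1G79040), a small lumenal subunit linked to PSBP binding, had the second highest level per length of all members (mean RPKM 400.3). It was at 151, 165 and 149.9 CPM in Col and 176, 214 and 152 CPM in ore15-2. Replicates 1 and 2 of ore15-2 were above Col and replicate 3 was within its range (log2 fold change 0.21, SE 0.14, edgeR adjusted p = 0.354). PSBR overlaps a neighbouring gene by 51 bp. The small subunit genes PSBW, PSBX and PSBY had values of -0.20, -0.20 and -0.54. The group's median was -0.24, with 8 of 9 values negative.

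In electron transport and ATP synthase 2 of 5 genes fell. PETC (AT4G03280), the Rieske iron-sulphur protein of cytochrome b6f, was at 25.3, 29.0 and 25.2 CPM in Col and 19.6, 18.1 and 18.5 CPM in ore15-2. ATPC1 (AT4G04640), the gamma subunit of chloroplast ATP synthase, was at 37.2, 43.9 and 42.4 CPM in Col and 24.4, 31.4 and 23.6 CPM in ore15-2. Neither gene had overlapping groups. PETC fell by 0.50 (SE 0.11, edgeR adjusted p = 0.0237) and ATPC1 fell by 0.65 (SE 0.13, edgeR adjusted p = 0.0147). PETC missed the threshold without any Col replicate or without ore15-2 replicate 1 (edgeR adjusted p from 0.0674 to 0.146) and with the replicate block (edgeR adjusted p = 0.0604), and ATPC1 without Col replicates 2 or 3 or ore15-2 replicate 1 (edgeR adjusted p = 0.0796, 0.0604 and 0.0814).

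PETE2 (AT1G20340), the main plastocyanin gene here with a mean RPKM of 77.4 against 2.71 for PETE1, was at 42.8, 46.7 and 41.4 CPM in Col and 34.4, 39.6 and 23.6 CPM in ore15-2. The ore15-2 libraries lay below Col, with replicate 3 far lowest, and the change of -0.45 (SE 0.17, edgeR adjusted p = 0.128) did not pass. Without ore15-2 replicate 2 it was -0.63, with an edgeR adjusted p of 0.0209. PETE1 and ATPD had values of -0.05 and -0.34.

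Of the Calvin cycle genes, GAPB (AT1G42970) fell. It encodes a subunit of the chloroplast glyceraldehyde-3-phosphate dehydrogenase and was at 19.0, 23.0 and 19.5 CPM in Col and 13.4, 13.1 and 12.1 CPM in ore15-2. The groups were apart and the fall was 0.68 (SE 0.13, edgeR adjusted p = 0.0139), which missed the threshold without Col replicate 2 (edgeR adjusted p = 0.0928). GAPA, its partner subunit, had a value of -0.31. RCA (AT2G39730), the activase that frees Rubisco of bound sugar phosphates, was at 92.4, 103 and 99.5 CPM in Col and 103, 104 and 68.6 CPM in ore15-2. Replicates 1 and 2 were at or just above the top of the Col range and replicate 3 was below Col (log2 fold change -0.11, SE 0.16, edgeR adjusted p = 0.688). PRK and FBA2 had values of -0.10 and -0.25.

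**Figure D4:**
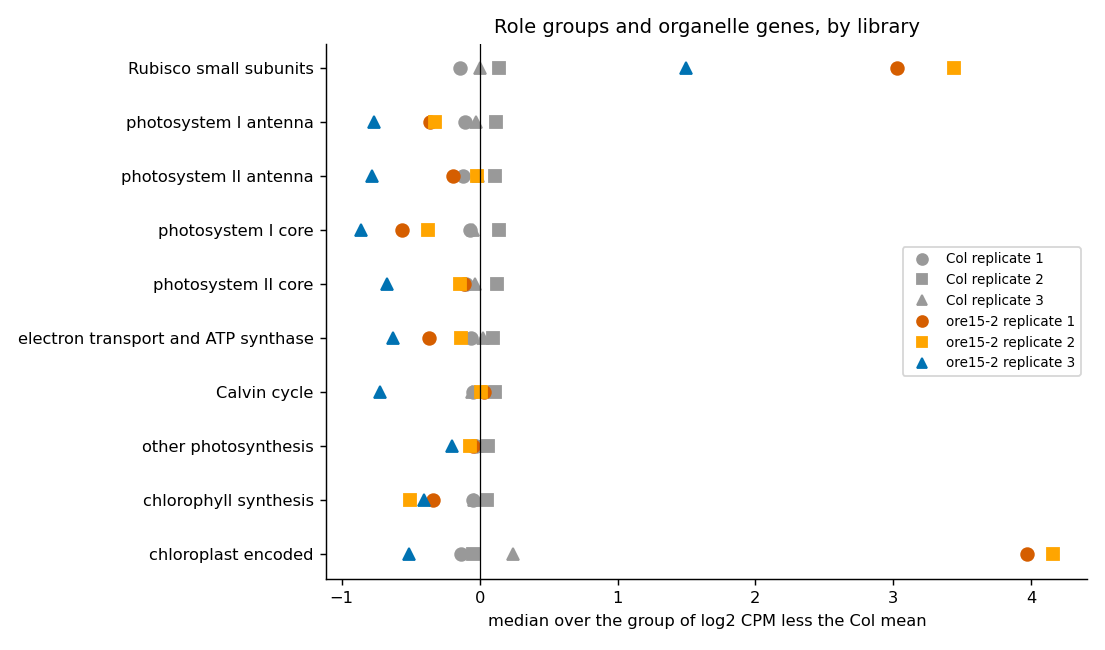
Median over each group of genes of the change per library (log2 CPM less the Col mean), for the 7 role groups with more than 1 measured member, 2 further nuclear lists and 12 chloroplast-encoded genes. In ore15-2 replicate 3 (blue) each median is negative except that of the Rubisco small subunits, and chloroplast-encoded genes are high in replicates 1 and 2 and low in replicate 3.

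GLK2 (AT5G44190), a transcription factor that activates many of these genes, was at 11.9, 14.0 and 13.4 CPM in Col and 11.8, 9.94 and 10.1 CPM in ore15-2. The ore15-2 libraries were below Col, replicate 1 by a small margin, and the change of -0.31 (SE 0.14, edgeR adjusted p = 0.198) passed the threshold in none of 17 alternatives. In a list of 20 regulators of greening and light signalling, 17 were tested, of which 1 rose and 1 fell. Over all genes 6.47% rose and 3.43% fell, so 1 gene in each direction is near the share of all genes. CRY1, a blue light receptor, was at 49.4, 50.1 and 51.5 CPM in Col and 28.6, 27.8 and 36.8 CPM in ore15-2 (log2 fold change -0.68, SE 0.12, edgeR adjusted p = 0.00834). SIGE, a sigma factor of the chloroplast RNA polymerase, was at 16.8, 17.8 and 17.5 CPM in Col and 33.9, 24.1 and 23.0 CPM in ore15-2 (log2 fold change 0.63, SE 0.15, edgeR adjusted p = 0.0352). Both genes had groups that were apart. CRY1 missed the threshold without ore15-2 replicate 1 (edgeR adjusted p = 0.0534), and SIGE without any Col replicate or without ore15-2 replicate 1 (edgeR adjusted p from 0.0956 to 0.165). HY5 was at 0.01 on the log2 scale (SE 0.12).

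Other nuclear photosynthesis genes were fewer among the calls. Of 40 listed, 38 were tested, 1 rose (LHCB1.1), 2 fell, and the median log2 fold change was -0.14. Over all genes 6.47% rose and 3.43% fell, so these counts of calls are near the share of all genes or under it. All 3 ore15-2 libraries nevertheless lay below all 3 Col libraries in 15 of the 38, against 16.3% of all genes. They lay above them in 3, against 18.2% of all genes. CP12-1, which binds glyceraldehyde-3-phosphate dehydrogenase and phosphoribulokinase, was at 40.7, 44.6 and 44.0 CPM in Col and 28.1, 29.8 and 24.8 CPM in ore15-2 (log2 fold change -0.66, SE 0.11, edgeR adjusted p = 0.00521). PGR5-LIKE A, a component of cyclic electron flow, was at 19.9, 20.7 and 20.6 CPM in Col and 12.9, 7.95 and 14.2 CPM in ore15-2 (log2 fold change -0.76, SE 0.18, edgeR adjusted p = 0.0334). Both were lower in each ore15-2 library than in Col. CP12-1 stayed past the threshold whichever library was left out, and PGR5-LIKE A missed it without any Col replicate or without ore15-2 replicate 1 (edgeR adjusted p from 0.0967 to 0.133). No gene of the list was called higher without Col replicate 1, Col replicate 2 or ore15-2 replicate 1, and 7 were without ore15-2 replicate 3. That last fit called 3510 of all 18730 genes higher, so 7 of 38 is close to the share of all genes. Whether this list differs from the 48 members was not tested.

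Chlorophyll synthesis genes had lower values in all 11 measured of 12, with a median of -0.40, and 3 fell, against 3.43% of all genes. CHLM, a methyltransferase of the magnesium branch, was at 28.8, 32.2 and 29.1 CPM in Col and 15.4, 14.5 and 15.7 CPM in ore15-2 (log2 fold change -0.98, SE 0.11, edgeR adjusted p = 0.000882). PORB, a light-dependent protochlorophyllide oxidoreductase, and the chlorophyll synthase G4 fell by 1.26 (SE 0.26, edgeR adjusted p = 0.0160) and by 0.49 (SE 0.13, edgeR adjusted p = 0.0468). CHLM stayed past the threshold whichever library was left out, PORB missed it without Col replicate 2 (edgeR adjusted p = 0.0857), and G4 passed without ore15-2 replicate 3 and missed it in the other 5 such fits (edgeR adjusted p from 0.0509 to 0.190). CHLM was about as low in ore15-2 replicates 1 and 2 as in replicate 3, and the list's medians in those libraries were -0.34, -0.51 and -0.41. In this list ore15-2 replicate 3 did not have the lowest median, unlike in the 48 members.

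**Figure D5:**
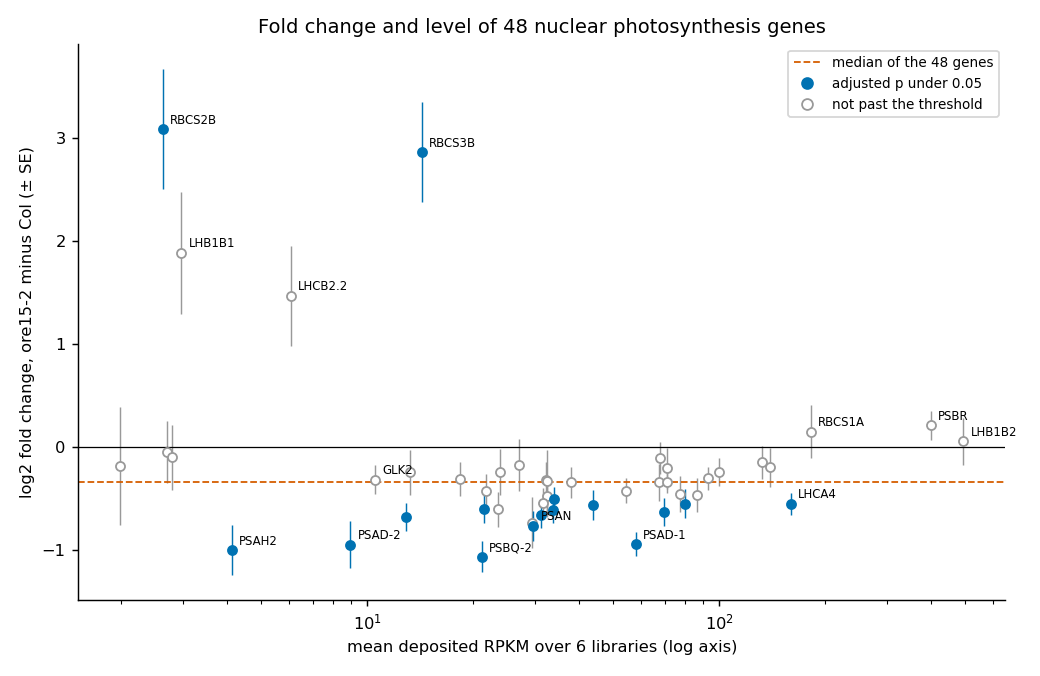
Log2 fold change (ore15-2 minus Col, with its SE as the bar) of 48 members against their mean deposited RPKM on a log axis. Filled blue points passed the edgeR threshold, and the dashed line is the median of -0.34. The 4 largest positive values belong to RBCS2B, RBCS3B, LHB1B1 and LHCB2.2, all with a mean RPKM of 14.3 or less.

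Levels per length spanned from 494 mean RPKM for LHB1B2 to 1.99 for LHCB2.3. The 5 highest members were LHB1B2, PSBR, RBCS1A, LHCA4 and PSBX, at 494, 400.3, 182, 160 and 139 RPKM, and of these only LHCA4 passed the test of change. Changes differ on that scale by a common shift, as the median log2 fold change of all genes was -0.21 in limma on log2(RPKM + 1). Relative to that shift the members' median was -0.34, as with counts. Of all genes called on that scale, 469 were higher and 641 lower, against 1211 and 643 with counts.

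The DNA just upstream of the members shared short motifs at rates above those of all genes. The 250 bases before the annotated gene start were searched on both strands for the G-box CACGTG, the I-box core GATAAG and the letters CCAATC, which are known from promoters of light-responsive genes. The G-box was present in 11 of 50 members (22.0%) and in 6.49% of 27443 protein-coding genes. The I-box core was present in 13 members (26.0%) against 12.3% of all genes, and CCAATC in 14 members (28.0%) against 10.2%. Among the 14 members that fell the G-box was present in 6 (42.9%), the I-box core in 6 (42.9%) and CCAATC in 4 (28.6%). These matches are descriptions of letters, with no test. For RBCS1A the annotated gene start lies 418 bases before the start codon, so its window lies farther upstream than that of RBCS2B, whose start codon is 93 bases away.

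Upstream windows are shown for RBCS2B, which rose, and for the 3 members that fell and hold 2 G-boxes, with matches to the motifs in capitals (RefSeq TAIR10.1, read 5′ to 3′ on the gene's strand, ending at the base before the gene start). They lie at chr5:15382072-15382321 (minus strand), chr4:2673244-2673493 (minus), chr4:11334102-11334351 (plus) and chr1:19454548-19454797 (plus):
RBCS2B: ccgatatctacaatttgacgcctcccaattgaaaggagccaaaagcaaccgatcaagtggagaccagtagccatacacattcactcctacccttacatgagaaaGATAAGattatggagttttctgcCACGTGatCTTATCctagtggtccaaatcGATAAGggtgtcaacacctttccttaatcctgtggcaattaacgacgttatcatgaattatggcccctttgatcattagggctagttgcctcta
PSBQ-2: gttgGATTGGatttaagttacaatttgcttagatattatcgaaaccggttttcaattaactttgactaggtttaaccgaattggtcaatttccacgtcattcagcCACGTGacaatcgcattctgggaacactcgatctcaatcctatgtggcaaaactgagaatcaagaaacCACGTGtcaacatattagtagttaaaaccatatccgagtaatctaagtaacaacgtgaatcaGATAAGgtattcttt
PSBQA: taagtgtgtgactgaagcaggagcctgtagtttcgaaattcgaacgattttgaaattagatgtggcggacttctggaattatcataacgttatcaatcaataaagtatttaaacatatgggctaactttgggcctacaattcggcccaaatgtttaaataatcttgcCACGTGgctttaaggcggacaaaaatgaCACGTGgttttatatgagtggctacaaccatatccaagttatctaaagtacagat
PSAH2: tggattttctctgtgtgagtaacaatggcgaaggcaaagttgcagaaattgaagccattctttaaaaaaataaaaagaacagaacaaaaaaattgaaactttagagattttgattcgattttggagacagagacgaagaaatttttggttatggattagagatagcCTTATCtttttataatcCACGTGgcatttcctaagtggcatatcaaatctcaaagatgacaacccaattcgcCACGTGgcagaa
The RBCS2B window holds 1 G-box between I-box cores, of which there are 3. The PSBQ-2 window holds 2 G-boxes, 1 I-box core and 1 CCAATC, the PSBQA window 2 G-boxes, and the PSAH2 window 2 G-boxes and 1 I-box core. A window with a G-box was thus found in 6 of the 14 members that fell and in a member that rose. RBCS3B, the other member that rose, has none of the motifs in its window, and PSAD-1, which fell, has no G-box. Their annotated gene starts lie 336 and 291 bases before the start codon. Both windows therefore lie farther upstream of the start codon than that of RBCS2B.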

How the data were processed

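Root tip RNA of 2 genotypes was sequenced, with 3 libraries each. The authors deposited counts per gene for 18734 genes and RPKM values for 18340. The submitters' processing notes name HTSeq, TopHat2, cutadapt and FastQC and the build TAIR10, and per the labels' protocols poly(A) RNA went into a stranded kit. The strand setting of the counting and its treatment of reads that fit several genes were not stated in any source used.

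The test was edgeR's quasi-likelihood F-test (version 4.0.16, R 4.3.3) on the counts, with the filterByExpr filter, scaling by TMM, genotype as the only term and Benjamini-Hochberg adjustment over all genes tested. The SE is the absolute log2 fold change divided by the square root of F. CPM uses TMM-scaled library sizes, in which 3 counts correspond to 0.136 to 0.596 CPM, and changes per library use a prior count of 2. Floors cover counting error only. Levels were compared between genes by the authors' RPKM.

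Alternatives were DESeq2 1.42.0, limma-voom (limma 3.58.1), scaling by RLE or the upper quartile, no filter, at least 5 CPM in 3 libraries, a replicate block, organelle genes left out, limma on log2(RPKM + 1) and log2(RPKM + 0.1) at a mean RPKM of at least 1, each library left out, and ore15-2 replicates 1 and 2 both left out. The code was tested on simulated data.

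The members and gene lists were chosen with earlier results of these data known. Values in every library are given for each member past the threshold, all measured Rubisco small subunits, GLK2, the highest member of each role group by mean RPKM, and LHCB1.1 to LHCB1.3, with up to 6 called genes of the further photosynthesis and regulator lists. LHB1B1, LHCB2.2, rbcL, PSAK, HY5 and the chlorophyll synthesis genes were named after their values were seen. Positions and sequences are from RefSeq TAIR10.1, in which all 50 IDs were found. Endodermis genes (5 measured, 1 higher) and root cap genes (4 measured, 1 higher) were counted too, and over all genes 6.47% were higher.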

Additional observations from a re-analysis of the deposited data

How the results depend on the processing

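With 14 members lower and 2 higher, limma on log2(RPKM + 1) and log2(RPKM + 0.1) called 24 and 23 lower. On those scales the median of all genes was -0.21 and -0.23. With ore15-2 replicates 1 and 2 left out 38 members fell and their median was -0.68. DESeq2 called 4 higher and the filter at 5 CPM 1. Leaving out each library in turn gave 2 to 24 lower and 1 to 5 higher. The 5 came from the fit without ore15-2 replicate 3, in which 3510 of all 18730 genes were higher. Of the other photosynthesis genes (1 higher, 2 lower), 2 were higher with DESeq2, 0 with limma-voom, 2 with the replicate block and 2 with ore15-2 replicates 1 and 2 left out. Lower were 4 with log2(RPKM + 1) and 11 with ore15-2 replicates 1 and 2 left out. Leaving out each library gave 0 to 7 higher and 1 to 6 lower, and the 7 and the 6 also came from the fit without ore15-2 replicate 3. Single genes were compared only for 23 members, those past the threshold and the highest of each role group by mean RPKM. Of these, 4 that did not pass turned sign in some analyses. With log2(RPKM + 1), log2(RPKM + 0.1) and ore15-2 replicates 1 and 2 left out, RBCS1A was at -0.14, -0.14 and -0.59, LHB1B2 at -0.22, -0.22 and -0.50, and PSBR at -0.0197, -0.0197 and -0.0183. Leaving out each library gave RBCS1A -0.19 to 0.40, LHB1B2 -0.21 to 0.24 and RCA -0.22 to 0.044. The cause was not tested. Of 389 alternative values of these 23 members, 321 kept direction and side of the threshold, 45 left it, 10 passed it and 13 turned. RBCS3B, PSAD-1 and PSBQ-2 stayed past it in all 17. Deviations of same-numbered libraries from their group means had correlations of 0.06, 0.08 and -0.20. With 3 libraries per genotype, these values cannot show whether same-numbered libraries shared growth or preparation. The replicate block gave 11 lower and 3 higher members, and 10 of the 14 stayed lower, without PSAE-2, PSAH2, PSBQA and PETC. All genes split into 1054 higher and 752 lower with upper-quartile scaling. Counts of RBCS2B in Col (3 to 8 per library) limit its fold change.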
